A study of Mus musculus with 6 samples.

Results

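The genes described here are 52 factors of ribosome production, measured as RNA in mouse embryonic fibroblasts with and without a knockout of Fbxw7. They were chosen by gene symbol alone: every locus named Nop, Nol, Utp or Rrp with a number, the RNA polymerase I subunits Polr1a to Polr1e, and Ncl, Npm1, Fbl, Dkc1, Nolc1, Bop1, Pes1, Wdr12, Gnl3, Nip7, Rrs1, Bysl and Nob1. The tables held 53323 loci, 16787 genes passed a filter on low counts and were tested, and all 52 chosen genes passed that filter. The symbol rule also took in Nol3 and Nol4, which carry a nucleolar name but are not assembly factors, so they are described apart and counts are given with and without them.

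Ribosomes are built in the nucleolus, where RNA polymerase I transcribes a long precursor of the ribosomal RNAs. Small nucleolar ribonucleoproteins, guided by box C/D or box H/ACA RNAs, methylate and pseudouridylate that precursor, and separate sets of assembly factors fold and cut it into the small and the large subunit. The transcription factor MYC is known to raise many of these genes, and MYC protein is a known substrate of the ubiquitin ligase whose substrate-binding part is encoded by Fbxw7.

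The study compared fibroblasts labelled WT with fibroblasts labelled Fbxw7 KO, 3 libraries of total RNA each, all grown in DMEM with 15% serum and 1% non-essential amino acids. The labels name no strain, embryo age, method of knockout or deleted exons. They also do not say whether replicate libraries represent different embryos or cultures, so p-values measure the spread between these libraries, which may be technical. Fbxw7 RNA itself was at 29.5, 28.4 and 30.1 CPM (estimated counts relative to the scaled library size) in WT and at 27.6, 27.4 and 24.1 CPM in the knockout, a log2 fold change of -0.16 ± 0.10 (SE; edgeR adjusted p = 0.332). Because the deleted exons are not stated, this gene-level value does not check the genotype. In bulk RNA, fewer cells of a type and less RNA per cell cannot be told apart.

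Library totals ran from 55720129 to 64198455 estimated fragments, and each of the 52 genes had between 97 and 47224 of them per library. Replicates 1 and 2 of a genotype lay close together, with a difference over genes 7.42 times sampling noise in WT and 6.56 times in the knockout. WT replicate 3 differed from the other WT libraries by 26.8 and 29.6 times the noise, and knockout replicate 3 from its group by 31.6 and 42.6 times. WT replicate 3 was further from the knockout libraries, at 50.3, 53 and 70.7 times the noise for knockout replicates 1 to 3. Of the 12 proliferation markers, all 12 were highest among the WT libraries in WT replicate 3, and their summed level was 501.2, 471.3 and 889.9 CPM in WT replicates 1 to 3, against 680.3, 689.9 and 778.7 CPM in the knockout. Fibroblast markers summed to between 31880 and 42890 CPM in WT and between 33690 and 40800 CPM in the knockout, but single markers differed: of 11 tested, Lum (4.08 ± 0.65) and Dcn (1.56 ± 0.36) were higher and Vim (-0.83 ± 0.15) lower in log2 fold change (edgeR adjusted p = 0.00612, 0.0252 and 0.00972). Dcn and Col3a1 also set WT replicate 3 apart, at 288 and 386.8 CPM, against 879.7 and 724.3 CPM of Dcn and 1138 and 1240 CPM of Col3a1 in WT replicates 1 and 2. Of the 11, 2 were highest among the WT libraries in WT replicate 3. They were Vim, at 4575 CPM against 3406 and 3513 CPM, and Thy1, at 1780 CPM against 1460 and 1459 CPM. These markers are named after their values were seen, and their part in the results was not tested. Markers of other cell types were low: the epithelial sum reached 3.65 CPM at most with Krt8 at 0, the muscle sum 0.245 CPM with Myod1 and Myf5 at 0, the endothelial sum was 7.68 to 9.97 CPM in WT and 1.38 to 2.04 CPM in the knockout, the leukocyte sum 18.5 to 21.2 and 10.8 to 13.5 CPM with Adgre1 at 0, and the neural sum 22.2 to 26.4 and 7.52 to 17.6 CPM with Sox2 at 0. Most of the leukocyte and neural sums came from Lyz2 and Map2, at WT means of 17.7 and 21.8 CPM. In edgeR 2 of 3 tested endothelial markers (Kdr and Tek), 2 of 3 leukocyte markers (Cd68 and Lyz2) and 1 of 2 neural markers (Map2) were called lower (8.08% of all genes).

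Across the 52 genes, 4 were higher in the knockout (Nol4, Rrp1b, Nop14 and Utp11) and 3 were lower (Nol3, Rrp36 and Rrp1) at an edgeR adjusted p under 0.05. Over all genes tested, 8.03% were called higher and 8.08% lower, or 16.1% in either direction, so the 13.5% of these genes called, and the 10% called once Nol3 and Nol4 were left out (3 higher, 2 lower), were not above the background. An unadjusted p under 0.05 was found for 12 of the 52, against 5299 of the 16787 genes tested. All knockout libraries lay above all WT libraries for 8 of the 52 genes, against 19.2% of all genes, and below them for 4, against 18.4%. The median log2 fold change was 0.13 (0.01 over all genes), 32 of 52 values were above 0 (61.5%, against 50.8% of all genes), and the values ran from -0.59 for Nol3 to 1.56 for Nol4. Scaling to library size alone moved the median of all genes to 0.10 and the share of called genes that were higher from 49.8% to 65.7%. Under that scaling the same 4 members were higher, only Rrp36 was lower (17.8% of all genes were called), and 40 values were above 0.

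**Figure D1:**
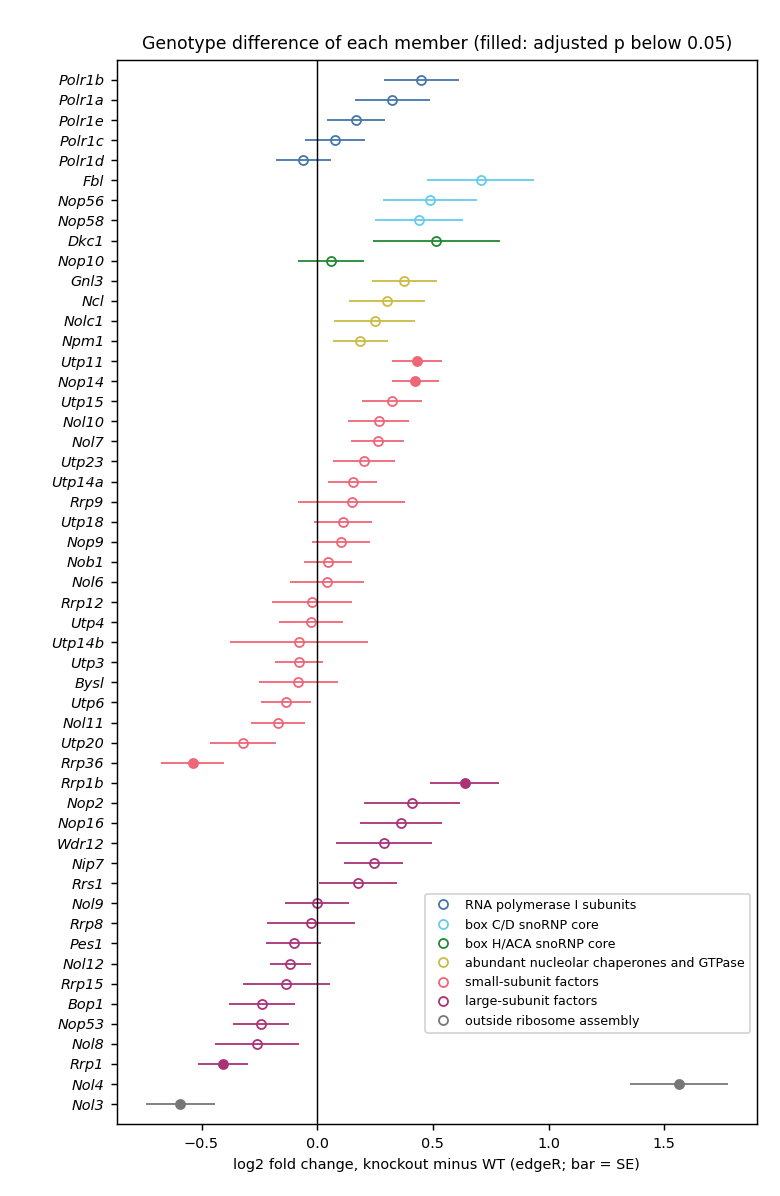
Log2 fold change of each of the 52 genes, knockout minus WT, from the edgeR fit, grouped by role; bars are 1 standard error and filled points have an adjusted p below 0.05. Filled points stand at 1.56 for Nol4, 0.64 for Rrp1b, 0.43 for Utp11, 0.42 for Nop14, -0.41 for Rrp1, -0.54 for Rrp36 and -0.59 for Nol3.

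The spread among the WT libraries was large for this set. WT replicate 3 was the highest WT library for 47 of the 52 genes (90.4%), against 38.1% of all genes tested. Its median distance above the mean of WT replicates 1 and 2 was 0.36 on the log2 scale (-0.02 over all genes), and this distance was larger than the genotype difference for 39 of the 52 genes (75.0%, against 46.3% of all genes). The WT mean in that genotype difference includes WT replicate 3, so both quantities depend on that library. Between replicates 1 and 2 of each genotype alone, the median log2 difference was 0.26 (0.00 over all genes). For 40 genes (76.9%, against 41.7%) WT replicate 3 was nearer to the knockout mean than to the other WT libraries, and for 24 (46.2%, against 32.5% of all genes) it exceeded every knockout library. The summed level of the 52 genes was 3011, 2776 and 3668 CPM in WT replicates 1 to 3 and 3552, 3285 and 3452 CPM in the knockout. The sum of the 12 proliferation markers given above was also highest in WT replicate 3. Within the knockout it did not rank the libraries as the sum of the 52 genes did. In edgeR 0 of the 12 markers were called (16.1% of all genes). Their log2 fold changes were above 0 for 10 and below 0 for Mki67 (-0.29) and Cdk1 (-0.32). The part of these markers in the result was not tested.

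**Figure D2:**
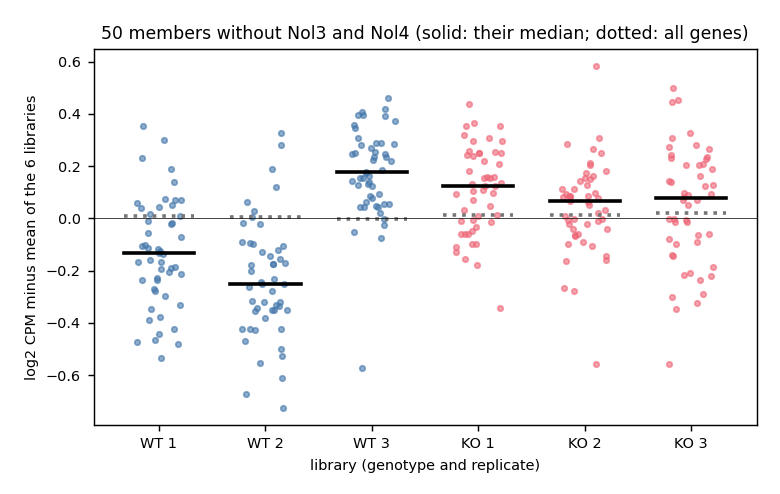
Each point is 1 of the 50 genes without Nol3 and Nol4 in 1 library, as log2 CPM minus the gene's mean over the 6 libraries; solid lines are medians of the 50 and dotted lines medians of all genes tested. The medians of the 50 are -0.13, -0.25 and 0.18 in WT replicates 1 to 3 and 0.12, 0.07 and 0.08 in the knockout. WT replicate 3 has the highest of these medians. Over genes in general it lay nearer to the other WT libraries than to the knockout libraries.

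Calls depended on that library. Without WT replicate 3, 19 of the 52 genes were higher (36.5%, against 9.37% of all genes) and 2 lower (Nol3 and Rrp36; 9.1% of all genes), and the median log2 fold change was 0.23. With replicate 3 of both genotypes left out, 29 were higher (55.8%, against 20.7%) and 4 lower (Nol3, Rrp1, Rrp36 and the locus of Utp14b; against 20.6%). Conversely, leaving out replicate 1 or 2 of either genotype left Nol4 as the 1 member called, or 1.92%, while of all genes 7.56% and 7.39% were called with WT replicate 1 or 2 dropped, and 6.79% and 8.5% with knockout replicate 1 or 2 dropped. Without knockout replicate 3 the called members were Nol4, Nop14, Rrp1b, Nol3 and Rrp36 (9.62%, against 19.1% of all genes). When replicates 1 and 2 were merged into 1 sample per genotype, edgeR called 0 of the 52 and 484 genes in all (2.71%). In that fit 7 of the 52 had an unadjusted p under 0.05, which was not counted over all genes. Values given below without WT replicate 3 rest on WT replicates 1 and 2, which lay close together, so their small SE may be technical. WT replicate 3 was the highest WT library for each gene so given, so leaving it out raises the log2 fold change in itself. For the same genes, the edgeR adjusted p with replicates merged was 0.421 (Polr1b), 0.539 (Nop56), 0.639 (Dkc1), 0.981 (Rrp9), 0.707 (Nop2) and 0.672 (Nip7). On log2(FPKM + 1), limma called Rrp1 and Rrp36, both lower, as the only members (3.85%, against 11.9% of all genes).

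**Figure D3:**
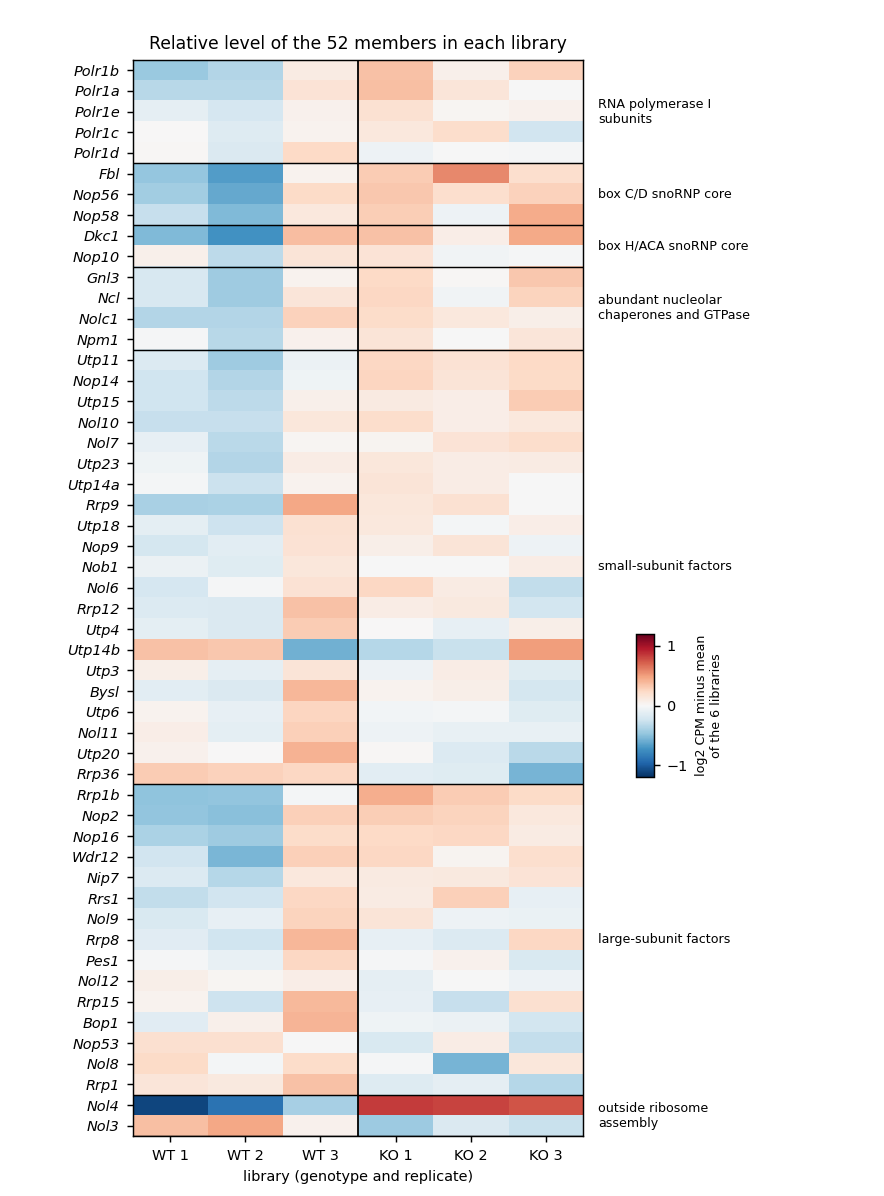
Colour gives log2 CPM minus the gene's mean over the 6 libraries for all 52 genes (rows, grouped by role) in each library (columns). WT replicates 1 and 2 are blue for most rows, while WT replicate 3 is red for most, being the highest WT library for 47 of 52; the row of Utp14b, counted with Acsl3, is red in WT replicates 1 and 2 and blue in WT replicate 3.

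The RNA polymerase I subunits gave 0 calls among 5 in edgeR, DESeq2 and limma (16.1%, 12.5% and 11.9% of the genes each was run on). DESeq2 was run on 27625 genes without the count filter, and it called 3335 of the 16787 that passed that filter. In edgeR the 5 subunits had 1 unadjusted p under 0.05 (against 5299 of the 16787 genes tested) and a median log2 fold change of 0.17. Polr1b, which with Polr1a forms the catalytic core, was at 18.1, 19.2 and 26.2 CPM in WT and at 31.4, 25.6 and 29.8 CPM in the knockout. Its lowest knockout library lay just below WT replicate 3, and the log2 fold change of 0.45 ± 0.16 had an adjusted p of 0.101 in edgeR (0.63 ± 0.12 and 0.0161 without WT replicate 3). Polr1a was at 62.9, 62.8 and 88.7 CPM and at 101.9, 87.5 and 79.0 CPM (0.32 ± 0.16, adjusted p = 0.218), again with WT replicate 3 inside the knockout range. Polr1c, a subunit shared with RNA polymerase III and the most abundant of the 5 per length at a mean of 97.4 FPKM (the deposited value per transcript length and depth), was at 60.7, 54.2 and 62.3 CPM and at 65.8, 69.9 and 51.3 CPM (0.08 ± 0.13, adjusted p = 0.732). Polr1e and Polr1d, at log2 fold changes of 0.17 ± 0.13 and -0.06 ± 0.12, also overlapped between genotypes.

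The core proteins of the box C/D particles, which methylate ribosomal RNA, had the highest median of the assembly groups, 0.49, with 3 of 3 values above 0. In edgeR 0 of the 3 were called (16.1% of all genes), with 2 unadjusted p under 0.05 (against 5299 of the 16787 genes tested). DESeq2 called Fbl alone (it called 3335 of the 16787 genes tested). Nop56, which with Nop58 holds the methyltransferase on the guide RNA, was at 56.8, 49.8 and 89.4 CPM in WT and at 94.99, 87.7 and 92.0 CPM in the knockout (0.49 ± 0.20, adjusted p = 0.148). WT replicates 1 and 2 were low and the other 4 libraries lay together, so that without WT replicate 3 the value was 0.78 ± 0.10 (adjusted p = 0.00328). Nop58, its partner, was at 95.5, 80.4 and 126.7 CPM and at 142.2, 110.8 and 157.7 CPM (0.44 ± 0.19, adjusted p = 0.161), with overlapping groups. The loci of Nop56 and Nop58 also carry small nucleolar RNA or predicted gene names, as do those of Ncl and Gnl3, and their values are for the whole locus.

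Fbl, the methyltransferase of these particles, was at 2.07, 1.79 and 2.94 CPM in WT and at 3.53, 4.27 and 3.29 CPM in the knockout, with no overlap (0.71 ± 0.23, adjusted p = 0.08 in edgeR). Its mean of 4.16 FPKM is low beside 70.2 FPKM for Nop56 and 90.9 FPKM for Nop58. The processed pseudogene Gm5812 matches 984 bases of a Fbl transcript at 96.8% identity, and it was listed at 20.2, 17.7 and 31.9 CPM in WT and at 32.7, 35.4 and 35.6 CPM in the knockout. It held 90.6% of the reads of the pair, so the level printed for Fbl is uncertain. Summed with its copy, Fbl was at 22.2, 19.5 and 34.8 CPM and at 36.2, 39.7 and 38.9 CPM, with a log2 fold change of 0.59 ± 0.21 (adjusted p = 0.0950), and the groups still did not overlap.

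Copies of this kind, at least 95% identical over at least 200 bases, were found for 6 of the 52 genes in a search added after the data were seen. They held 69.5% of the combined reads for Npm1 (5 copies), 39.0% for Pes1, 37.9% for Wdr12, 15.6% for Polr1d and 3.82% for Nop56. A transcript annotated to Tulp4 also shares 690 bases with Fbl at 99.6% identity, and Ccnd3 shares 361 bases with Bysl; these coding loci were not summed. Npm1, a histone and ribosomal protein chaperone, was at 80.4, 64.6 and 84.5 CPM in WT and at 90.7, 80.8 and 89.8 CPM in the knockout at its own locus, and at 252, 196 and 279 CPM and at 294, 264 and 322 CPM with its copies (0.27 ± 0.15, adjusted p = 0.249). Summing the copies left the calls at 4 higher and 3 lower, all 7 of them the same genes.

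**Figure D4:**
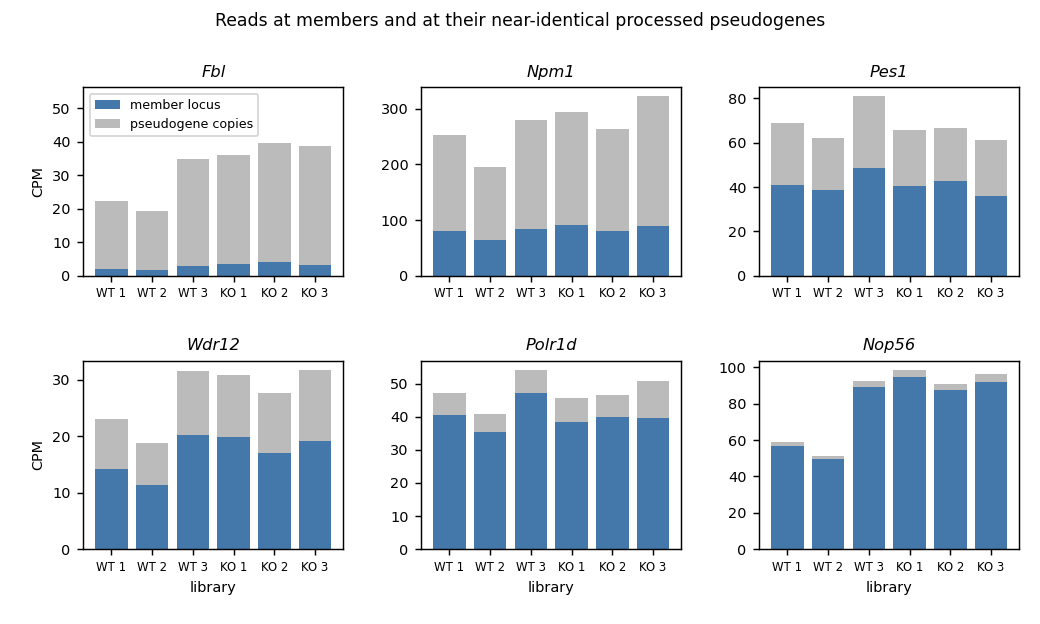
Bars show CPM in each library at the gene's own locus (blue) and at its near-identical processed pseudogenes (grey, stacked) for the 6 genes that have such copies. For Fbl the grey part makes up 90.6% of the total and for Npm1 69.5%, while for Nop56 it is 3.82%.

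Of the box H/ACA core, 0 of 2 genes were called in edgeR, DESeq2 or limma (16.1% of genes in edgeR, 3335 of the 16787 tested in DESeq2, 11.9% in limma). Neither had an unadjusted p under 0.05. Dkc1, the pseudouridine synthase that also binds telomerase RNA, was at 23.7, 20.7 and 44.4 CPM in WT and at 43.8, 36.1 and 47.0 CPM in the knockout. WT replicate 3 stood at the level of the knockout libraries, and the log2 fold change was 0.51 ± 0.27 (adjusted p = 0.247), or 0.93 ± 0.14 (adjusted p = 0.00665) without it. Nop10, a small protein of the same particle, had a log2 fold change of 0.06 ± 0.14.

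The abundant nucleolar chaperones and the GTPase Gnl3 had 4 of 4 values above 0 and a median of 0.28. In edgeR, DESeq2 and limma 0 of them were called (16.1% of genes in edgeR, 3335 of the 16787 tested in DESeq2, 11.9% in limma). In edgeR 1 had an unadjusted p under 0.05, against 5299 of the 16787 genes tested. Ncl (nucleolin), which binds the ribosomal RNA precursor, was the most abundant of all 52 genes per length at a mean of 190.0 FPKM. It was at 586.3, 500.2 and 741.5 CPM in WT and at 796.9, 652.8 and 805.8 CPM in the knockout (0.30 ± 0.16, adjusted p = 0.254), and WT replicate 3 lay above 1 knockout library. Gnl3 (nucleostemin) was at 78.6, 66.7 and 92.4 CPM and at 105.9, 90.3 and 112.4 CPM, overlapping by 1 library (0.38 ± 0.14, adjusted p = 0.111). Nolc1, a chaperone of small nucleolar particles, was highest of all libraries in WT replicate 3, at 113.6 CPM against 73.5 and 73.4 CPM in the other WT libraries and 108.9, 102.3 and 98.1 CPM in the knockout (0.25 ± 0.17, adjusted p = 0.380).

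Among 21 small-subunit factors, 2 were called higher and 1 lower (8.03% and 8.08% of all genes), with a median of 0.05. Nop14, a scaffold protein of the small-subunit processome, was at 80.0, 73.6 and 90.9 CPM in WT and at 112.7, 104.5 and 110.6 CPM in the knockout. All knockout libraries were above all WT libraries, and the log2 fold change was 0.42 ± 0.10 (edgeR adjusted p = 0.0290). Utp11, another processome protein, was at 54.7, 45.5 and 58.0 CPM and at 72.6, 68.9 and 72.0 CPM, also without overlap (0.43 ± 0.11, adjusted p = 0.0338). Rrp36, which acts in early cleavage of the precursor, went the other way, at 27.0, 26.6 and 26.0 CPM in WT and at 20.1, 19.9 and 14.9 CPM in the knockout. Its WT libraries lay within 1 CPM of each other, the knockout libraries were all lower, and the log2 fold change was -0.54 ± 0.14 (adjusted p = 0.0337). In GENCODE M21 on mm10, the build of the files, Nop14 lies at chr5:34638536-34660148, Utp11 at chr4:124678160-124693600 and Rrp36 at chr17:46666324-46674352, all on the minus strand.

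Other small-subunit factors did not pass the test. Utp15, a processome subunit tied to transcription of the precursor, was at 27.7, 26.1 and 34.0 CPM in WT and at 34.99, 34.4 and 40.3 CPM in the knockout, with no overlap but a gap under 1 CPM (0.32 ± 0.13, adjusted p = 0.132). Nol7, the most abundant of the 21 per length at a mean of 62.3 FPKM, was at 35.2, 30.3 and 38.3 CPM and at 38.6, 42.2 and 43.6 CPM (0.26 ± 0.11, adjusted p = 0.162), again without overlap. A transcript of the neighbouring gene Ranbp9 shares 266 bases with Nol7, so reads may be divided between them. Utp20, a large scaffold protein, had the lowest log2 fold change of the 21 after Rrp36, -0.32 ± 0.14 (adjusted p = 0.167), with 161.6, 156.7 and 208.7 CPM over the WT libraries against 157.6, 139.7 and 124.6 CPM over the knockout libraries. Nol11 and Nol10 had log2 fold changes of -0.17 ± 0.11 and 0.26 ± 0.13.

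Several small-subunit factors were set apart more by WT replicate 3 than by genotype. Rrp9, a protein of the particle that guides early cleavages, was at 16.7, 16.8 and 30.2 CPM in WT and at 24.0, 24.8 and 21.8 CPM in the knockout (0.15 ± 0.23, edgeR adjusted p = 0.706; 0.49 ± 0.11 and 0.0257 without that library). Bysl, needed for release of the small subunit, was at 30.4, 29.4 and 43.6 CPM and at 34.3, 34.8 and 28.7 CPM (-0.08 ± 0.17, adjusted p = 0.784), and Rrp12, an export factor, at 22.9, 22.8 and 32.9 CPM and at 27.4, 27.8 and 22.1 CPM (-0.02 ± 0.17, adjusted p = 0.942). In all 3 the highest of the 6 libraries was WT replicate 3. Nob1, the endonuclease of the last cut in the small-subunit RNA, varied least of these, at 34.4, 32.7 and 39.8 CPM and at 36.0, 36.0 and 38.5 CPM (0.05 ± 0.10, adjusted p = 0.797). Utp3, Utp4, Utp6, Utp18, Utp23, Nol6 and Nop9 had log2 fold changes from -0.14 for Utp6 to 0.20 for Utp23. Of these only Utp23 did not overlap in CPM, but its WT replicate 3 and knockout replicate 2 both rounded to 17.84 CPM. In FPKM it overlapped, at 11.04, 8.07 and 11.94 in WT and at 10.17, 9.18 and 10.25 in the knockout.

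Utp14a and Utp14b, paralogs that belong to the small-subunit processome, did not pass the test. Utp14a, on chromosome X, was at 49.5, 41.9 and 51.9 CPM in WT and at 55.9, 53.3 and 50.1 CPM in the knockout (0.15 ± 0.11, adjusted p = 0.380). Utp14b, a retrocopy of Utp14a that lies inside Acsl3, was counted as 1 locus with that coding gene. That locus was at 103.5, 101.4 and 54.4 CPM in WT and at 63.8, 67.3 and 114.4 CPM in the knockout, so replicate 3 was the low library of WT and the high library of the knockout (-0.08 ± 0.30, adjusted p = 0.888). The files do not divide its reads between Utp14b and Acsl3.

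The 15 large-subunit factors had 1 call in each direction (8.03% of all genes were higher, 8.08% lower). Both calls were in the pair of paralogs Rrp1 and Rrp1b, and the median was -0.03. Rrp1b, which also binds a protein phosphatase in the nucleolus, was at 15.9, 16 and 21.8 CPM in WT and at 30.1, 27.5 and 26.0 CPM in the knockout (0.64 ± 0.15, edgeR adjusted p = 0.0266). Rrp1 was at 212.6, 209.6 and 245.3 CPM and at 173.0, 179.1 and 151.7 CPM (-0.41 ± 0.11, adjusted p = 0.0412). Rrp1b lies at chr17:32036100-32062865 and Rrp1 at chr10:78400384-78413043 in the GENCODE annotation. Neither paralog overlapped between genotypes. Per length Rrp1 was the more abundant of the pair, at a mean of 105.5 FPKM against 6.47 FPKM for Rrp1b. Scaling by library size alone or by upper quartiles ended the call of Rrp1, as did leaving out any 1 of the 6 libraries, while Rrp1b lost its call when replicate 1 or 2 of either genotype was left out.

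**Figure D5:**
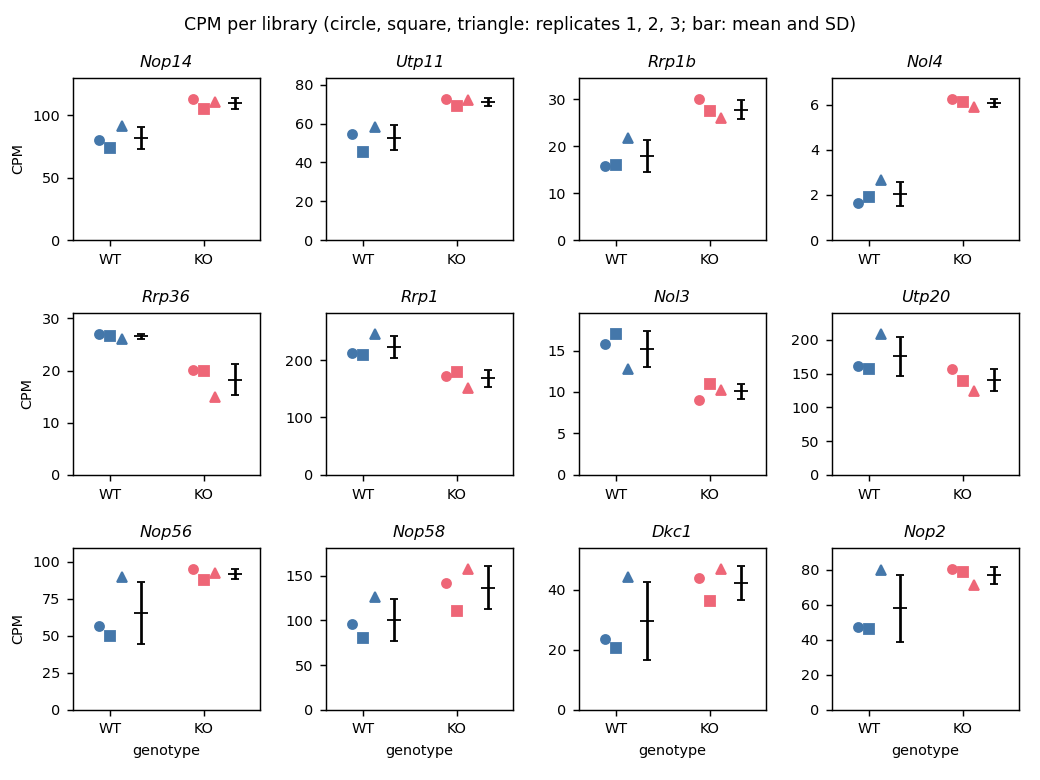
CPM of 12 genes in each library, with replicate 1 as circle, 2 as square and 3 as triangle, and the mean and SD of 3 libraries beside them; axes start at 0. The 7 genes that passed the test (upper row and first 3 panels of the middle row) show no overlap, while for Nop56, Nop58, Dkc1 and Nop2 the WT triangle sits within or near the knockout values.

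The other large-subunit factors divided by direction without passing the test. Nop2, a cytosine methyltransferase of ribosomal RNA, was at 47.2, 46.3 and 80.1 CPM in WT and at 80.5, 78.7 and 71.4 CPM in the knockout (0.41 ± 0.21, adjusted p = 0.227; 0.71 ± 0.09 and 0.00387 without WT replicate 3). Nop16 had the same layout, at 24.6, 23.8 and 37.2 CPM and at 37.8, 38.0 and 34.1 CPM (0.36 ± 0.18, adjusted p = 0.209). For both, WT replicate 3 was at the knockout level. Nop53, which docks the RNA exosome on the maturing large subunit and was the most abundant of the 15 per length at a mean of 127.3 FPKM, was at 89.2, 89.1 and 78.0 CPM and at 69.0, 83.3 and 64.0 CPM (-0.24 ± 0.12, adjusted p = 0.211). Pes1, Bop1 and Wdr12, which form 1 complex needed for the large subunit, had log2 fold changes of -0.10 ± 0.12, -0.24 ± 0.14 and 0.29 ± 0.21, and WT replicate 3 was the highest of all 6 libraries for each of them.

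Nip7, which acts in large-subunit RNA processing, was at 31.3, 27.7 and 38.3 CPM in WT and at 37.9, 38.0 and 39.3 CPM in the knockout (0.24 ± 0.13, edgeR adjusted p = 0.241; 0.38 ± 0.10 and 0.0405 without WT replicate 3). Rrs1, which helps to bring the 5S particle into the large subunit, was at 39.3, 41.1 and 57.2 CPM and at 51.7, 58.8 and 45.1 CPM (0.18 ± 0.17, adjusted p = 0.517). Nol12, an RNA-binding factor, had a narrow range, at 30.8, 29.8 and 30.9 CPM and at 27.2, 29.2 and 28.1 CPM, with no overlap but a log2 fold change of -0.12 ± 0.09 (adjusted p = 0.424). Nol9, a polynucleotide kinase, Rrp8, a base methyltransferase, and Rrp15 lay at 0.00 ± 0.14, -0.03 ± 0.19 and -0.13 ± 0.19, and Nol8 at -0.26 ± 0.18 with its lowest value, 18.1 CPM, in knockout replicate 2.

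Outside ribosome assembly, Nol4 had the highest and Nol3 the lowest log2 fold change of the 52 genes. Nol4, a nucleolar-named protein of little known function, was at 1.63, 1.89 and 2.65 CPM in WT and at 6.24, 6.12 and 5.89 CPM in the knockout. In CPM the knockout libraries lay close together and well above WT, the log2 fold change was 1.56 ± 0.21 (edgeR adjusted p = 0.00312), and the call held without any 1 library. In the deposited FPKM it was at 1.30, 0.927 and 0.785 in WT and at 2.48, 3.85 and 1.496 in the knockout, so that the groups did not overlap but knockout replicate 3 lay near WT replicate 1. On log2(FPKM + 1) limma gave 0.80 ± 0.25 (adjusted p = 0.0796), which did not pass. Its mean of 1.81 FPKM was the lowest of the 52. Nol3, a repressor of apoptosis, was at 15.8, 17.0 and 12.7 CPM and at 9.07, 10.9 and 10.2 CPM, without overlap (-0.59 ± 0.15, adjusted p = 0.0333).

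Sequence windows around the start site, taken from RefSeq on GRCm38.p6 from 250 bases before to 50 bases after it, were matched for 40 of the 52 genes. The E-box CACGTG, the binding word of MYC and MAX, which reads the same on both strands, was in 7 of the 40 (17.5%) and in 7.15% of all 32851 windows. The ETS core CCGGAA, searched on both strands, was in 19 of the 40 (47.5%) and in 14.9% of all windows. Each of the 40 genes had 1 window, the one nearest its annotated gene start. All windows count every listed start, so a gene can enter more than once. The shares are therefore not like for like, and their difference was not tested. The called genes with a window (Nop14, Rrp1b, Rrp1 and Rrp36) had no E-box in it. The E-box genes were Nol11, Nop2, Pes1, Utp4, Utp14b, Utp18 and Utp20. The stretches below are shown because they set the called pair of paralogs and Nop14 beside 2 E-box promoters; all are read 5′ to 3′ on the gene's strand, outside annotated exons, with the E-box in capitals. They lie at chr5:34660149-34660298 (Nop14, minus strand), chr10:78413044-78413193 (Rrp1, minus), chr17:32035950-32036099 (Rrp1b, plus), chr6:125131733-125131882 (Nop2, plus) and chr11:107189382-107189531 (Nol11, minus). The Rrp1b stretch covers bases -212 to -63 from the start site and the others bases -150 to -1.
Nop14: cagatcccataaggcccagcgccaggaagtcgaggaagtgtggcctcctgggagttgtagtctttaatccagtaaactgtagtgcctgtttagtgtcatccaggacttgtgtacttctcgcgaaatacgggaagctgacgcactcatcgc
Rrp1: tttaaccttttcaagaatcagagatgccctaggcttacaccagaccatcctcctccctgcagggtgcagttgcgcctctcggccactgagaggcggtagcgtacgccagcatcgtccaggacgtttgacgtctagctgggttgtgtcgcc
Rrp1b: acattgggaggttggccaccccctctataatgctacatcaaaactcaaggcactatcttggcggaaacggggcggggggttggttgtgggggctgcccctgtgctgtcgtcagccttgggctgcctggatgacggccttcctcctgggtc
Nop2: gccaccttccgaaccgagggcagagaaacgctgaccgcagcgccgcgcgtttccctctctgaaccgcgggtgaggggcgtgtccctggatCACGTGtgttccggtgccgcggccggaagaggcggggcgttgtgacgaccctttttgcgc
Nol11: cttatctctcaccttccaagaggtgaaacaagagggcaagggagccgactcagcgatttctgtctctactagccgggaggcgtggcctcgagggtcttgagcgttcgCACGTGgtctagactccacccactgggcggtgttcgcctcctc

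The E-box of Nop2 begins at -60 and that of Nol11 at -43 from the start site. Their log2 fold changes were 0.41 ± 0.21 and -0.17 ± 0.11 (edgeR adjusted p = 0.227 and 0.360). A match is a run of letters and not a measured binding site.

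Myc, shown here after its values were seen, was at 28.3, 29.6 and 68.3 CPM in WT and at 97.0, 85.7 and 77.7 CPM in the knockout (1.04 ± 0.33, edgeR adjusted p = 0.0669). Every knockout library was above every WT library, and WT replicate 3 was again the high WT library, as for most of the 52 genes; a link between the values was not tested. Of 12 tested genes of the MYC, MAX and MXD network, 1 passed (16.1% of all genes did). It was Mxi1, a partner of MAX that opposes MYC, at 31.3, 31.7 and 26.2 CPM in WT and at 51.0, 55.3 and 42.0 CPM in the knockout (0.73 ± 0.13, adjusted p = 0.0105).

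Ribosome assembly genes outside the symbol rule were also mostly highest in WT replicate 3 among the WT libraries. Of 127 such genes on 5 lists, 2 passed the edgeR test (1.57%, against 16.1% of all genes). An unadjusted p under 0.05 was found for 25 of them, against 5299 of the 16787 genes tested. DESeq2 and limma called 4 each (3335 of the 16787 genes tested in DESeq2, 11.9% of genes in limma). The median log2 fold change was 0.09 (0.01 over all genes), and 83 values were above 0 (65.4%, against 50.8% of all genes). WT replicate 3 was the highest WT library for 113 of the 127 (89.0%, against 38.1% of all genes). Emg1, a methyltransferase of the small-subunit RNA, was at 38.8, 34.0 and 43.9 CPM in WT and at 52.1, 49.7 and 51.4 CPM in the knockout (0.39 ± 0.11, adjusted p = 0.0494). Pno1, a late small-subunit factor, was at 56.9, 48.4 and 67.5 CPM and at 42.4, 38.2 and 38.8 CPM (-0.53 ± 0.13, adjusted p = 0.0320). By list, the medians were 0.11 for 16 initiation factors and shared subunits of RNA polymerase I, 0.24 for 13 partners of the small nucleolar particles, 0.05 for 40 other small-subunit factors, 0.02 for 45 other large-subunit factors and 0.09 for 13 exosome genes.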

How the data were processed

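For 3 WT and 3 Fbxw7 knockout fibroblast libraries the submitters' processing notes name Cufflinks 2.2.1, TopHat2 2.1.1, deepTools and SAMtools 1.5, with the build mm10. No annotation or use of strand is given in the sources used here. Tables deposited by the authors hold, per the file headers, estimated counts (expected fragments per locus) and FPKM, laid out as Cufflinks tracking files. Of the values up to 1000 in the deposited estimated counts, 88.9% to 89.5% were whole multiples of 1 step per library (tolerance 0.05); totals before that scaling were 51152384 to 70625743. Reads shared between gene copies were divided by estimation, which makes such loci uncertain.

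Left out were 1317 loci without a name (at most 3.13e-05% of a library) and 9 marked HIDATA; 55 marked FAIL stayed. After rounding, the quasi-likelihood test of edgeR 4.0.16 (R 4.3.3) was run on the estimated counts (low counts removed by filterByExpr, TMM scaling, robust fit, with 1 term for genotype; two-sided), with Benjamini-Hochberg adjustment over 16787 genes and a threshold of 0.05. CPM is TMM-scaled; intervals of counting error were not used, and no molecular identifiers were counted. On simulated counts with 3 against 3 libraries and 16531 genes, the fit recovered 13.6% of 66 genes changed 1.5-fold. It recovered 40.9% of 66 changed 2-fold and 93.8% of 65 changed 4-fold, with 6 false calls. Far fewer genes were changed there than the 2705 called in the data, which makes the adjustment stricter. These rates therefore do not give the power of the test on the data. By the naming rule any of the 52 genes could be given as a value, with full values for the 12 with the smallest adjusted p, the most abundant by FPKM of each role group and 2 paralog pairs, and from each other pathway list at most 2 called genes. Full values of further members, of Myc and of cell type markers were added after their values were seen. Members, lists and tests were chosen with earlier results of these data known. Alternatives were other scalings and filters, DESeq2 1.42.0, limma 3.58.1 on log2(FPKM + 1) or log2(FPKM + 0.1), a replicate block, left-out or summed libraries and, chosen after seeing the data, summed pseudogene copies. Copies were sought with BLAST against GENCODE M21 transcripts.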

Additional observations from a re-analysis of the deposited data

How the results depend on the processing

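The median log2 fold change of the 52 genes stayed above 0 under every alternative run, from 0.05 with replicates 1 and 2 summed to 0.26 without replicate 3 of both genotypes. Leaving out 1 library at a time gave 1169 to 3282 genes past the threshold (6.79% to 19.1%, against 2705 or 16.1% with all). Of the members, 1.92% to 40.4% passed, with 1 to 19 higher and 0 to 2 lower. Without replicate 3 of both genotypes 6993 genes (41.3%) and 63.5% of members passed, with 29 members higher. With replicates 1 and 2 summed 484 genes passed (2.71%), with 0 members higher and 0 lower. In that fit 7 members had an unadjusted p under 0.05, which was not counted over all genes. limma gave 1562 genes (11.9%) on log2(FPKM + 1), 1615 (12.3%) on log2(FPKM + 0.1) and 1182 (4.28%) without a filter. Of the members, 3.85%, 5.77% and 0% passed, with 0 higher in each. In each, 8 members had an unadjusted p under 0.05, which was not counted over all genes. Library size alone left 1 member lower and called 9.62% of members (17.8% of all genes). DESeq2, run without the count filter, called 3442 of 27625 genes, 3335 of the 16787 that passed that filter, and 15.4% of members. With the replicate block, 2356 genes (14.0%) and 13.5% of members passed, with 5 members higher (Gnl3, Nol4, Nop14, Nop58 and Utp11) and 2 lower. The correlations of same-numbered libraries were 0.0237, 0.0979 and 0.0788, so numbers were not taken as pairs, although each library correlated best with its own number. Direction changed for 17 of the 52 genes under at least 1 alternative. By library size alone the values above 0 were Bysl 0.0123, Nol9 0.0948, Polr1d 0.0363, Rrp12 0.0694, Rrp8 0.0710, Utp14b 0.0265, Utp3 0.0158 and Utp4 0.0695, and by upper quartiles Nol9 0.0395, Rrp12 0.0167, Rrp8 0.0124 and Utp4 0.0128. Without replicate 3 of both genotypes Bysl was at 0.206, Nol9 0.191, Pes1 0.0696, Polr1d 0.0463, Rrp12 0.273, Rrp8 0.0572, Utp3 0.0309, Utp4 0.0981 and Utp6 0.0016. With replicates summed Nol6 was at -0.0858, Nop10 -0.0025, Polr1c -0.0093, Rrp9 -0.025 and Utp14b 0.194. In limma Nob1 was at -0.0957 (-0.0991 with 0.1 added) and Utp23 at -0.048 (-0.0507), with the first value of each also without a filter. Nol9 was at 0.0057 with a CPM of at least 1 in 3 libraries and 0.0091 with the replicate block, and Polr1d at 0.0059 with its copy summed. With 1 library left out the ranges were Bysl -0.186 to 0.122, Nob1 -0.0135 to 0.132, Nol6 -0.0859 to 0.176, Nol9 -0.0921 to 0.147, Nop10 -0.0718 to 0.154, Pes1 -0.172 to 0.003, Polr1c -0.0173 to 0.194, Polr1d -0.158 to 0.0503, Rrp12 -0.117 to 0.172, Rrp15 -0.279 to 0.0454, Rrp8 -0.171 to 0.191, Rrp9 -0.0001 to 0.487, Utp14b -0.401 to 0.0706 and Utp4 -0.118 to 0.136. Over all 52 genes and alternatives, 934 log2 fold changes kept direction and side of the threshold, 55 lost a call, 43 gained one and 60 changed direction. The causes were not tested.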
